A study of Arabidopsis thaliana with 6 samples.

Results

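The microRNA miR824 was followed in small RNA libraries of Arabidopsis thaliana seedlings. Its entries were found by name: an entry belonged if any of the miRNA names joined in it was that of miR824. This gave 2 of the 197 deposited entries, miR824-5p and miR824-3p, the mature RNAs from the opposite arms of 1 hairpin. Neither entry is joined with another miRNA. The study compared wild type (WT) with the mutant aar2-1, which carries a mutant allele of the gene for AAR2, a protein whose yeast and animal relatives help to assemble a spliceosome subunit. There were 3 biological replicates of each genotype, all whole seedlings 14 days old, grown on MS medium in a long-day light cycle, and the labels name no treatment. The labels name 1 mutant allele and no rescued line, so the allele and its genetic background cannot be told apart from the loss of AAR2 function.

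A plant miRNA is cut from a folded precursor by a Dicer-like enzyme as a short duplex. One strand is usually kept in an Argonaute protein, which it guides to complementary transcripts, while the other strand is mostly lost. The strand miR824-5p is known to guide cleavage of the transcript of AGL16, a MADS-box transcription factor. AGL16 is known to promote the additional divisions that build satellite stomata in the leaf epidermis and to delay flowering. AGL16 transcripts were not measured in these libraries.

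The sequences of both arms and the AGL16 sequences nearest to their complements are shown. They place the arms on their hairpin and show how near AGL16 comes to the complement of each. The mature RNAs and the genome are those of RefSeq on TAIR10.1, and 2 of 2 entry names matched. Capitals mark the seed (bases 2 to 8) in the miRNAs, and in the AGL16 sequences the bases that depart from the perfect complement. All are written 5′ to 3′.
miR824-5p: uAGACCAUuugugagaaggga
miR824-3p: cCUUCUCAucgauggucuaga
AGL16, nearest to the complement of miR824-5p: tcTcttctcacaaatggtcta
AGL16, nearest to the complement of miR824-3p: tctaAaccatcCatAagaagg

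The precursor MIR824 (AT4G24415) lies at chr4:12625094-12625782 on the plus strand. At 689 nt it was the longest of the 325 miRNA precursors in the annotation, whose median was 145 nt and whose next longest, MIR5648, had 500 nt. The 5p arm occupies bases 35 to 55 of the precursor and the 3p arm bases 628 to 648, with 572 nt between them. In the minimum free energy fold computed with RNAfold (-184 kcal/mol), 18 of the 21 bases of miR824-5p paired with bases of miR824-3p, and each strand ended in a 3′ overhang of 2 nt, the form of a Dicer-like product. The protein-coding gene AT4G24413, annotated on the opposite strand at chr4:12625014-12625560, overlaps the precursor and contains the 5p sequence but not the 3p sequence. Whether the authors' counting used strand is not given in the sources used here. Each mature sequence matched the nuclear and organelle genomes exactly at 1 place, its own locus, and no other annotated mature miRNA had the seed of either arm. The annotated mature sequences therefore have no second exact source in this genome. The reads counted under them were not searched.

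The AGL16 sequence nearest to the complement of miR824-5p lies at chr3:21180537-21180557 on the plus strand. It departs from the perfect complement by 1 substitution, C3T, counted from 1 at the 5′ end of the site, which falls opposite base 19 of the miRNA and outside its seed. The next best place in the AGL16 gene had 7 mismatches. The site lies in an exon of 5 of 5 annotated AGL16 transcripts and in the coding sequence of 4 of them. The complement of miR824-3p also had a near match in AGL16, at chr3:21179850-21179870, with 3 substitutions (G5A, G12C and G15A), against 8 mismatches at the next best place. The substitutions fall opposite bases 17, 10 and 7 of the miRNA, the last of them inside its seed. This near match is exonic in 0 of the 5 transcripts. The match is a likeness of sequence, and whether it is bound was not measured.

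Both arms of miR824 were lower in aar2-1 than in WT. Their sum averaged 40.3 ± 18.6 RPM over the 3 WT libraries and 10.5 ± 4.97 RPM over the 3 mutant ones (mean ± SD), a 3.82-fold decrease. The unit, RPM, scales the reads of an entry to a common library size, and 1 read was worth 0.0868 to 0.142 RPM. In whole seedlings, fewer cells that make miR824 and less miR824 per cell cannot be told apart.

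The strand that targets AGL16, miR824-5p, had 32.5 RPM in WT replicate 1, 8.82 RPM in replicate 2 and 23.6 RPM in replicate 3. In aar2-1 it had 8.24, 3.68 and 3.07 RPM in replicates 1, 2 and 3. The genotypes did not overlap, but WT replicate 2 lay close above the highest mutant library, at 1.07 times its value. These 2 libraries held 86 and 95 reads of miR824-5p, and their exact 95% Poisson intervals, 7.05 to 10.9 RPM and 6.67 to 10.1 RPM, overlapped. Such intervals cover counting error only. The other WT libraries held 305 and 201 reads, and the other mutant libraries 26 and 27. The WT mean was 21.7 ± 11.99 RPM and the aar2-1 mean 4.997 ± 2.83 RPM (SD, n = 3 each), a 4.34-fold difference. On the log2(RPM + 1) scale, which understates the change of entries near 1 RPM, the change was -1.84 (SE 0.43, 95% interval -2.76 to -0.92, limma adjusted p 0.00193).

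The opposite strand, miR824-3p, had 24.97, 11.8 and 19.0 RPM in WT replicates 1, 2 and 3 and 7.98, 4.67 and 3.97 RPM in those of aar2-1. Here too WT replicate 2 was the lowest WT library and aar2-1 replicate 1 the highest mutant library, and the gap between them was wider, 1.48-fold. These values rested on 115 to 234 reads in WT and on 33 to 92 reads in aar2-1. The means were 18.6 ± 6.601 RPM and 5.54 ± 2.14 RPM (SD, n = 3 each), a 3.36-fold difference. The log2(RPM + 1) change was -1.57 (SE 0.35, 95% interval -2.31 to -0.83, limma adjusted p 0.00129).

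**Figure D1:**
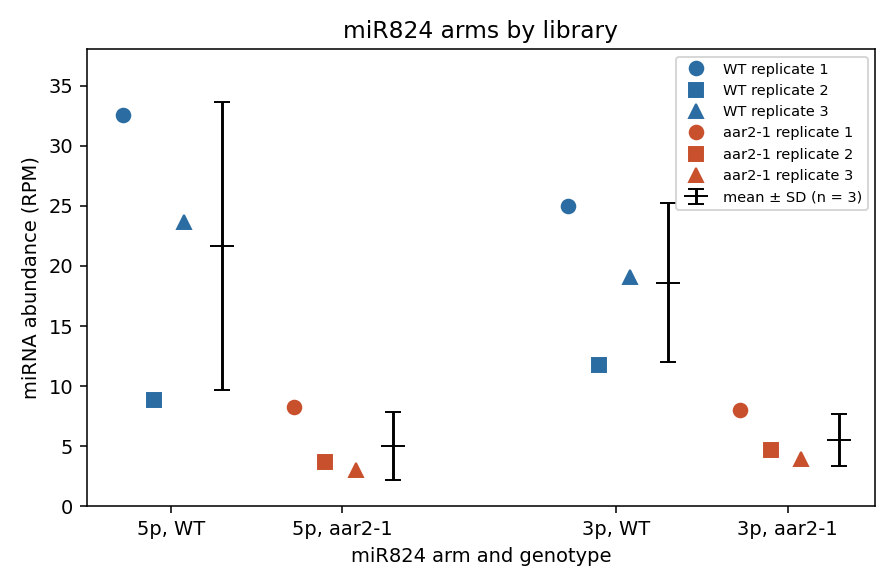
Abundance of miR824-5p and miR824-3p in RPM (vertical axis, from 0) in each library; points are libraries, coloured by genotype and shaped by replicate, and bars are the mean ± SD of 3 libraries. WT replicate 2 (8.82 and 11.8 RPM) sits well under the other WT libraries. It lies just above aar2-1 replicate 1 for miR824-5p (8.24 RPM) and further above it for miR824-3p (7.98 RPM).

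These calls stand against a broad background. Of the 131 entries tested (mean of at least 1 RPM), 83 passed the limma threshold, an adjusted p under 0.05; this is 63.4%, made up of 61.1% lower and 2.29% higher in aar2-1. In 59.5% of the tested entries every mutant library lay below every WT library, as for both arms of miR824. Falling, passing and not overlapping were thus shared with most entries. The median log2 change of the tested entries was -0.83, with quartiles of -1.31 and -0.56. Both arms lay below the lower quartile: miR824-5p had the 15th and miR824-3p the 24th largest decrease of the 131. They stood -1.02 and -0.75 from the median change.

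**Figure D2:**
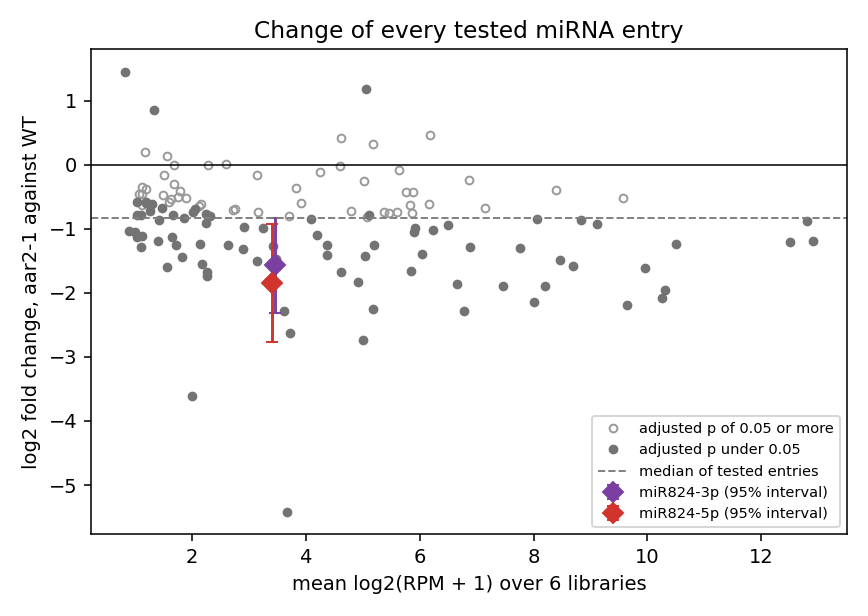
The log2 change of each of the 131 tested entries (vertical axis, aar2-1 against WT) against its mean log2(RPM + 1) over the 6 libraries (horizontal axis); filled points passed an adjusted p of 0.05, diamonds with 95% intervals are the miR824 arms, and the dashed line is the median change. Both arms (-1.84 and -1.57) lie under the median of -0.83, inside the cloud of other lower entries.

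Whether the fall of miR824 exceeded that of miRNAs in general depended on the reference. The 197 entries together summed to 46282 to 53127 RPM in WT and 18430 to 27681 RPM in aar2-1, 2.28-fold lower (exact permutation p = 0.10, two-sided, the smallest that 3 against 3 libraries can give). Of that total, miR824 made up 0.108%, 0.0445% and 0.0808% in WT replicates 1, 2 and 3 and 0.0586%, 0.0402% and 0.0382% in aar2-1. The genotypes overlapped, since WT replicate 2 lay below aar2-1 replicate 1. The mean share was 0.0779% ± 0.0320 in WT and 0.0457% ± 0.0113 in aar2-1 (SD, n = 3 each; two-sided exact permutation p = 0.20). Without WT replicate 2 the difference grew from -0.0322 to -0.0489 percentage points, and the genotypes no longer overlapped (exact permutation p = 0.10, the smallest possible). That omission took out the WT library that lay in the overlap, so the parting was fixed in advance. Without WT replicate 1 the difference shrank to -0.0170 (exact permutation p = 0.40). Leaving out any other library gave exact permutation p of 0.20 to 0.30. When each library was divided by its median ratio to the mean library, which raised the median change of all entries by 0.85, miR824-5p still passed (log2 change -0.88, limma adjusted p 0.0151), but miR824-3p did not (-0.59, adjusted p 0.0593). Centring on library medians and quantile normalization left both arms lower but past no threshold. Centring took the median change of all entries past 0, to 0.52.

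The place of miR824 among the miRNAs of its own library was compared next. Ranked from the most abundant of the 197 entries, miR824-5p stood at 55, 74 and 58 in WT replicates 1, 2 and 3 and at 67, 74 and 74 in aar2-1. The strand miR824-3p stood at 61, 69 and 63 in WT and at 69, 70 and 68 in aar2-1. The ranks of the genotypes overlapped for both arms (two-sided exact permutation p = 0.40 and 0.30).

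The 2 arms were nearly equal in reads, which sets MIR824 beside few other hairpins in these tables. The 5p strand made up 56.6%, 42.8% and 55.4% of the reads of both arms in WT replicates 1, 2 and 3, and 50.8%, 44.1% and 43.5% in aar2-1. The exact (Clopper-Pearson) 95% binomial interval was 52.3 to 60.8% in WT replicate 1, on 539 reads, and 35.8 to 49.9% in WT replicate 2, on 201 reads, so these WT libraries differed by more than counting error. In aar2-1 the intervals were wider, as in replicate 2 with 31.2 to 57.6% on 59 reads. The means were 51.6% ± 7.64 in WT and 46.1% ± 4.05 in aar2-1 (SD, n = 3 each), and the difference of -5.44 percentage points was within the spread of the libraries (two-sided exact permutation p = 0.40). A change of the arm balance with genotype was thus not detected. The WT library with the least miR824 also had the lowest 5p share, and the mutant library with the most miR824 had the highest of the mutant libraries. The intervals of the mutant libraries overlapped, so their order is within counting error. The 5p reads are also part of the miR824 total, and a tie between level and balance was not tested.

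**Figure D3:**
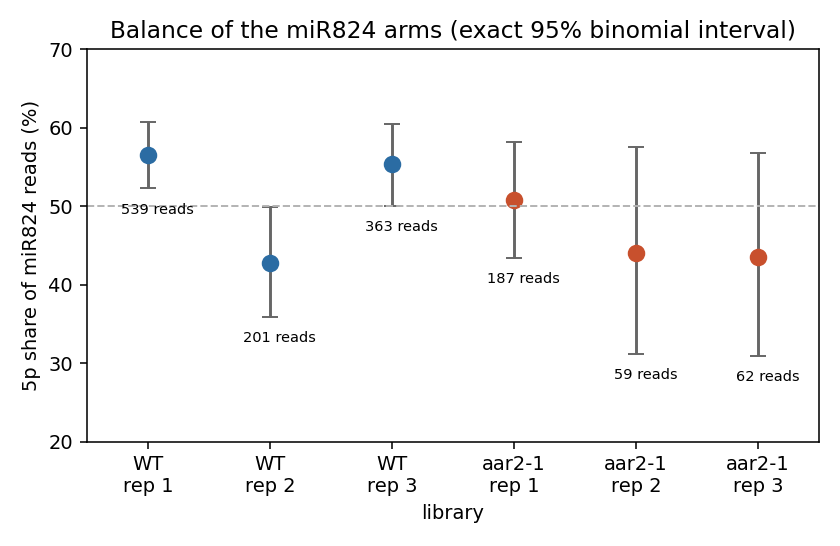
Share of the 5p strand (vertical axis, percent) among the reads of both miR824 arms in each library, with the exact 95% binomial interval and the number of reads. WT replicate 2 (42.8%) lies with aar2-1 replicates 2 and 3 (44.1% and 43.5%), below the other WT libraries (56.6% and 55.4%).

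The other hairpins were used to place this balance. With both arms tested, 39 pairs of opposite arms were found through the annotation, by the arm in the name or, for names without one, by the place in the precursor. Where an arm gave more than 1 tested entry the more abundant was used, and some pairs share an entry because their mature sequences are identical. The more abundant arm of a pair exceeded the other by a median of 11.9-fold in mean RPM, and by up to 2267-fold. Many pairs hold a joined entry, whose reads can come from more hairpins than those of the other arm, which bears on that median. Among the pairs without a joined entry, such as MIR824, the middle ratio was 2.61, that of MIR472, and the highest was 2267, that of MIR159b. For MIR824 the ratio was 1.104, the lowest of the 39, with MIR5663 next at 1.16 and MIR164c at 1.61. In single libraries MIR824 ranked between 1 and 5 in evenness, with ratios of 1.03 to 1.34. Both strands of the miR824 duplex thus gave similar numbers of reads in these libraries, in WT and in aar2-1. How evenly the library preparation took up different sequences was not measured. How the authors counted reads that begin or end beside the annotated mature sequence is not given in the sources used here, and it bears on every such ratio.

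The arms of MIR824 also fell by like amounts. The log2 change of miR824-5p minus that of miR824-3p was -0.27, against a median size of 0.58 over the 39 pairs, of which 11 differed less. Both arms passed as lower in 14 of the 39 pairs, MIR824 among them, 1 arm alone in 20 and neither in 5. Over all tested entries 61.1% passed as lower, so a pair with both arms lower is common without any tie between its arms. The differences ran from -2.43 for MIR396b, whose 5p arm passed as lower while its 3p arm had a log2 change of 0.47, to 1.36 for MIR398b.

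**Figure D4:**
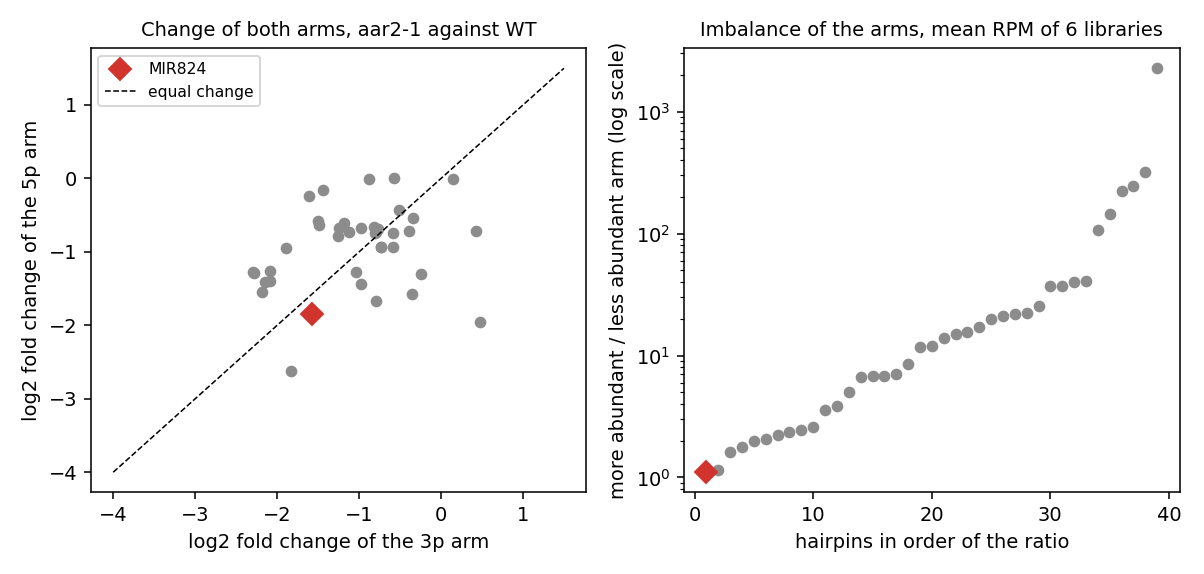
Left, the log2 change (aar2-1 against WT) of the 5p arm against that of the 3p arm for 39 pairs of hairpin arms, with the line of equal change. Right, the ratio of the more to the less abundant arm in mean RPM (log axis), in rising order. MIR824 (diamond) lies near the line, with a difference of -0.27, and has the lowest ratio, 1.104.

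The spread of miR824 among WT libraries was wide. The coefficient of variation of miR824-5p over the 3 WT libraries was 55.3%, against a median of 19.2% over the 131 tested entries, and 6 entries had a larger one. Among the 43 entries of similar abundance (5 to 50 RPM), 1 varied more. The value for miR824-3p was 35.5%, which 25 of the 131 exceeded. WT replicate 2 held 0.314 times the mean of the other WT libraries for miR824-5p, where the median entry had 0.802, and 1 tested entry had a lower ratio. For miR824-3p the ratio was 0.536, and 16 tested entries had a lower one. This comparison of replicates was chosen after the values were seen. On the mutant side, aar2-1 replicate 1 held 2.44 times the mean of the other mutant libraries for miR824-5p, where the median entry had 1.55. For miR824-3p it held 1.85 times that mean. A higher ratio was found in 12 tested entries for miR824-5p and in 46 for miR824-3p. What sets these libraries apart is not given in the labels and was not tested.

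Leaving out WT replicate 2 deepened the log2 change of miR824-5p most, to -2.36 (limma adjusted p 2.78e-07), and that of miR824-3p to -1.85 (adjusted p 3.91e-05). Leaving out WT replicate 1 brought them to -1.47 and -1.34 (adjusted p 0.00440 and 0.00838). Both arms passed in each of the 6 fits that left out 1 library.

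The entries with profiles most like miR824-5p were miR161.2, miR822-5p, the partner strand miR824-3p and miR399a. Likeness was the root mean square difference of the log2(RPM + 1) profiles over the 6 libraries, each centred on its own mean. It was 0.26, 0.28, 0.30 and 0.33 for these entries, against a median of 0.71 over all tested entries. The miRNA miR161.2, which targets transcripts of pentatricopeptide repeat proteins, had 27.6, 9.84 and 19.4 RPM in WT replicates 1, 2 and 3 and 10.2, 5.38 and 3.18 RPM in aar2-1. Its WT replicate 2, like that of miR824-5p, lay at the level of aar2-1 replicate 1, here just below it. The young miRNA miR822-5p had 56.4, 29.8 and 47.0 RPM in WT and 21.0, 10.9 and 8.97 RPM in aar2-1, without overlap. Their log2 changes were -1.47 (SE 0.41, limma adjusted p 0.00610) for miR161.2 and -1.68 (SE 0.37, adjusted p 0.00127) for miR822-5p. The phosphate-responsive miR399a had a log2 change of -1.74 (SE 0.32, limma adjusted p 2.76e-04), on as few as 8 reads in a library. The 6 libraries are shared by all these profiles, and most entries fell in the same ones. The entries were also picked for likeness over these libraries, the genotype difference included. Their decrease and their low WT replicate 2 therefore follow largely from that choice.

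**Figure D5:**
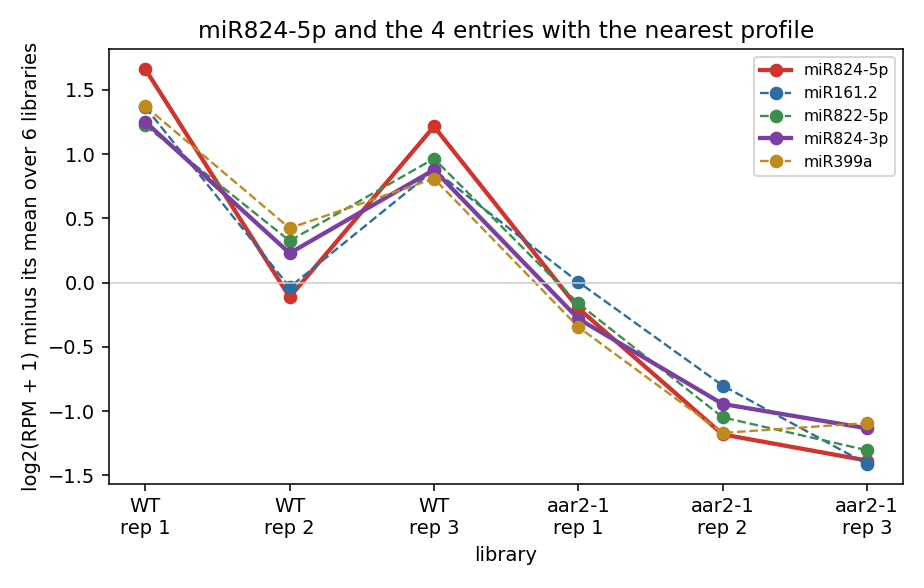
log2(RPM + 1) of miR824-5p and of the 4 entries with the nearest profiles in each library, minus the mean of the entry over the 6 libraries (vertical axis); lines only join the values of an entry. The profiles dip at WT replicate 2, and each is lower in aar2-1 replicates 2 and 3 than in aar2-1 replicate 1. The entries were chosen for likeness to miR824-5p over these same libraries.

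Since AGL16 acts in flowering time, miR824 was set beside 8 other miRNA families with known roles in flowering or the change from juvenile to adult growth: miR156, miR157, miR159, miR169, miR172, miR319, miR390 and miR399. Entries with the same number were summed and 77 families tested, of which 59.7% passed as lower and 3.9% as higher in aar2-1. The miR824 family passed (log2 change -1.80, SE 0.42, limma adjusted p 0.00300), and 10 of the 77 families had a larger decrease. Of the 8 others, 5 passed as lower, 0 as higher and 3 did not pass. Their median log2 change was -0.86, against -0.88 over all families, and in the list miR399 alone had a larger decrease than miR824.

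The families at the core of the juvenile-to-adult switch had smaller log2 changes than miR824. The miR156 family, which restrains SPL transcription factors and holds the plant juvenile, passed, with 945, 821 and 953 RPM in WT replicates 1, 2 and 3 and 665, 453 and 376 RPM in aar2-1 (log2 change -0.90, SE 0.27, limma adjusted p 0.0135). The related miR157 family did not pass, with 373, 230 and 296 RPM in WT and 274, 149 and 110 RPM in aar2-1 (log2 change -0.83, SE 0.37, limma adjusted p 0.0664). The miR172 family, which restrains AP2-like repressors of flowering, did not pass either, with 70.4, 25.7 and 59.6 RPM in WT and 44.5, 25.2 and 17.3 RPM in aar2-1 (log2 change -0.80, SE 0.44, limma adjusted p 0.125). WT replicate 2 was the lowest WT library in each of these families, and the genotypes overlapped for miR157 and miR172. The differences in change between miR824 and these families were not tested.

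The length of the MIR824 precursor invited a look at other long precursors, chosen after the values were seen. The 9 next longest with a tested entry measured 303 to 377 nt and gave 9 entries. Of these, 7 passed as lower, 0 as higher and 2 did not pass, where 61.1% of all tested entries passed as lower and 2.29% as higher. Their median log2 change was -0.86, near the -0.83 of all tested entries. The log2 change was -2.25 for miR846-3p, from a 359 nt precursor, and -0.00061 for miR5642b and miR5642a, joined in 1 entry, from precursors of 372 and 374 nt.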

How the data were processed

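Small RNA was sequenced from 6 seedling libraries, 3 per genotype, prepared with an NEBNext small RNA kit per the labels' protocols. The submitters' processing notes name cutadapt, Bowtie and the build TAIR10. The authors deposited 1 table per library with 197 entries in RPM. The unit was inferred: in each library the lowest value above 0 was taken as 1 read, and all 1182 values then came to whole reads with a tolerance of 0.02. The implied denominators were 7062198 to 11524176 reads, of which 146758 to 497904 fell on miRNA entries. Which reads form the denominator and the miRNA release are not given in the sources used here.

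Genotype was tested with limma 3.58.1 (R 4.3.3) on log2(RPM + 1) with a variance trend, two-sided, over the 131 entries of mean at least 1 RPM, with Benjamini-Hochberg adjustment over them and a threshold of 0.05; families were fitted likewise. The fit was run on simulated data with changes in both directions and no shift shared by most entries. These data hold such a shift, so the simulation does not bear on it. Quantities with 1 value per library had exact permutation tests. Alternatives were pseudocounts of 0.1 and 5 RPM, other filters and scalings, the replicate number as a block and leaving out each library. Named were both miR824 entries, the 4 nearest profiles, the flowering list with values for miR156, miR157 and miR172, and the pairs of hairpin arms; others are marked as chosen later or come from the annotation. Members and lists were chosen with earlier results of these data known. Positions are on TAIR10.1 (RefSeq), counted from 1; folding used RNAfold 2.7.2. Python 3.11.15, pandas 2.3.3, scipy 1.17.1 and matplotlib 3.10.9 were used.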

Additional observations from a re-analysis of the deposited data

How the results depend on the processing

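The decrease of miR824-5p, miR824-3p and their sum kept its direction under every setting run. It passed with pseudocounts of 0.1 and 5 RPM, without a filter, at a mean of at least 10 RPM and in the 6 fits that left out 1 library, where the log2 changes ran from -2.36 to -1.47, -1.85 to -1.34 and -2.21 to -1.49. Scalings that act on the shift shared by the entries ended calls. Centring on the library median raised the median change of all entries by 1.34, past 0 to 0.52, so that the median entry was then higher in aar2-1. With this centring the changes were -0.50, -0.23 and -0.66 (limma adjusted p 0.108, 0.430 and 0.0679). Quantile normalization, which raised the median change by 0.89, gave -0.72, -0.34 and -0.58 (adjusted p 0.212, 0.276 and 0.133). The median-ratio factor gave -0.59 for miR824-3p (adjusted p 0.0593), while the 5p arm and the sum passed (-0.88 and -0.68).

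The number of entries past the threshold, 83, fell to 45 at a mean of at least 10 RPM, where 69 were tested, to 48 with the factor (26 lower, 22 higher) and to 34 after quantile normalization (16 lower, 18 higher); centring gave 67 (12 lower, 55 higher), and leaving out 1 library 62 to 109. The difference in the miR824 share of the miRNA total was -0.0628 percentage points without the 3 largest entries (exact permutation p = 0.30). That smaller total raises every share, so this value is not on the scale of the main -0.0322. With the full total the difference was -0.0489 to -0.0170 without 1 library. The 5p share differed by -9.84 to -2.94 points and the ranks of the arms by 5.67 to 15.2 and 3 to 7 places in those fits.

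The replicate numbers were not treated as pairs: the deviations of same-numbered libraries correlated at 0.489, 0.047 and -0.151. With the replicate block the log2 changes were again -1.84, -1.57 and -1.80 (limma adjusted p 1.34e-07, 6.01e-06 and 1.28e-06, resting largely on variance pooled over entries), and 98 entries passed. Paired sign flips gave an exact p of 0.25 for the share of the total (-0.0322) and for the rank of miR824-3p (4.67), the smallest possible, and 0.50 for the 5p share (-5.44) and the rank of miR824-5p (9.33). The planned count tests were not run, since the tables hold too few low values to check the read step by the rule set for it. In aar2-1 replicates 2 and 3 each arm rests on 26 to 35 reads, which limits what can be said of their balance.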
